A study of Homo sapiens with 6 samples.

Results

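Ribosomes are assembled in the nucleolus, where RNA polymerase I (Pol I) transcribes the ribosomal RNA genes. Small nucleolar ribonucleoproteins (snoRNPs) modify the precursor RNA, and a large set of assembly factors folds, cuts and packs it into the small and the large subunit. The genes of this machinery are classical targets of MYC, and their output scales with cell growth, which makes them a frequent object of study in leukemia. The 48 genes described here were listed by name because their products act in this process, and all 48 were found by symbol in a table of 33981 genes. They comprise 4 Pol I transcription genes, 6 multifunctional nucleolar proteins, 4 box C/D and 4 box H/ACA snoRNP genes, 13 factors of the small subunit and 17 factors of the large subunit.

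The cells were THP-1, a monocytic acute myeloid leukemia (AML) cell line. In 1 arm (samples C1, C3 and C4) they carried a lentiviral scrambled shRNA, and in the other (N1, N2 and N3) a lentiviral shRNA against the transcription factor NFIC. In both arms GFP-positive cells were sorted 4 days after infection and their RNA was sequenced in bulk, with 3 samples per arm. The control is named as scrambled in the sample labels and in the study's results and figure legend, and as a GFP-only vector in its methods. For this comparison the study's figure legend names a single NFIC shRNA. Effects of lower NFIC and other effects of that shRNA therefore cannot be told apart. All samples stem from a single cell line, and nothing states that the 3 samples of an arm were separate cultures. The p-values below therefore measure the spread between these samples, which may be technical. The total was between 20369543 and 24809720 counts per sample, and 3 counts corresponded to between 0.121 and 0.147 CPM, the counts scaled to a common library size. NFIC itself was at 42.1, 41.4 and 42.2 CPM with the scrambled shRNA and at 19.4, 22.3 and 21.4 CPM after its knockdown (KD), a log2 fold change of -0.99 (SE 0.0723, adjusted p = 3.73e-09 from edgeR). The 10 monocytic markers examined, among them PTPRC, SPI1 and LYZ, were all tested. Of these 5 were lower and 3 higher in KD, beside 30.3% and 29.6% of all genes tested. Together the 10 made up between 2071 and 2251 CPM in scrambled and between 2161 and 2286 CPM in KD samples. Of 14 markers of other cell types 6 were not listed, CD3D had 1 count in all, and the 8 listed ones summed to between 159 and 182 CPM in scrambled and between 238 and 266 CPM in KD samples. Most of this was PECAM1, which monocytes also express and which was higher in KD, and without it the sums ranged from 11.6 to 13.5 CPM in scrambled and from 4.03 to 5.60 CPM in KD samples. The part of these markers in the results below was not tested.

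The promoters of the genes that changed most are shown first, because a short motif was more frequent in the members' promoters than in promoters at large. RefSeq (GRCh38.p14) gave a promoter for 41 of the 48 genes, from 250 bases before to 50 bases from the annotated start. The canonical E-box CACGTG, a palindrome that reads the same on both strands and is bound by MYC with its partner MAX among other factors, was searched in each. Below are the promoters of the members with the lowest and the highest log2 fold change among these 41, in the direction of transcription, with the E-box in capitals. FBL lies on the minus strand at chr19:39846330-39846629, DDX21 on the plus strand at chr10:68955920-68956219, UTP20 on the plus strand at chr12:101279855-101280154 and RRN3 on the minus strand at chr16:15094286-15094585.
FBL: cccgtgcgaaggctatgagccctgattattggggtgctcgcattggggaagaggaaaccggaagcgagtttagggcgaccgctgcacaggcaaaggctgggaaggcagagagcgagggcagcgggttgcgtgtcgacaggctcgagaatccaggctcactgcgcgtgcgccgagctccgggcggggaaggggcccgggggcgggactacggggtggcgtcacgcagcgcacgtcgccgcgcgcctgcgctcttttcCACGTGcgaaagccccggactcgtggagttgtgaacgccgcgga
DDX21: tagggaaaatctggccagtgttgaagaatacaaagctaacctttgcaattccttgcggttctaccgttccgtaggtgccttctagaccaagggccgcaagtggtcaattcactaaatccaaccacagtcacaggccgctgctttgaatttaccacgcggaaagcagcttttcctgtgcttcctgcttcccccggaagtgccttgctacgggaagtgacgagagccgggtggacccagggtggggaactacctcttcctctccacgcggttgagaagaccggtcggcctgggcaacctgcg
UTP20: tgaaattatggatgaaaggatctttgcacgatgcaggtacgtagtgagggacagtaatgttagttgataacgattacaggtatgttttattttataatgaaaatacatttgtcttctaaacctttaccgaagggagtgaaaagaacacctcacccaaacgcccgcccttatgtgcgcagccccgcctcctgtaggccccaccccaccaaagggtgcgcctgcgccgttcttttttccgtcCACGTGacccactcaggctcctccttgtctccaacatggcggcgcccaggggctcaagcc
RRN3: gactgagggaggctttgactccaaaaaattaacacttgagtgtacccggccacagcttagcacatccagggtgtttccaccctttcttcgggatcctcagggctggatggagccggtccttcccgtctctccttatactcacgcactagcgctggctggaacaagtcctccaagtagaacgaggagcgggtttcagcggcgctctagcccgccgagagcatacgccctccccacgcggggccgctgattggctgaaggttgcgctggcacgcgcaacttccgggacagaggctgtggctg
FBL and DDX21 fell most and UTP20 and RRN3 rose most, and in each direction 1 of the promoters shown holds the E-box and 1 does not.

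An E-box was present in 17 of the 41 member promoters (41.5%). Over all 27305 promoters the share was 7.43%, and over the 10676 promoters matched to protein-coding genes tested here it was 10.1%. The E-box began no more than 40 bases from the annotated start in 15 of the 41 (36.6%), against 2.25% of all promoters and 3.19% of those of the protein-coding genes tested. It was held by 13 of 27 promoters of members that were lower in NFIC KD, by 2 of 4 of those that were higher and by 2 of 10 of those that passed in neither direction. The letters therefore occurred beside both directions of change. A second start feature, a C followed by at least 4 pyrimidines as in the terminal oligopyrimidine mRNAs of the translation machinery, was found at the annotated start of 5 of the 41 (12.2%), against 4.04% of all promoters and 5.47% of those of the protein-coding genes tested. Its 5 carriers were FBL, DDX21, NPM1, UTP14A and EBNA1BP2. The full NFI palindrome (TTGGC, any 5 bases, GCCAA) was in none of the 41 and in 0.033% of all promoters. The TTGGC site on either strand, which also makes up the ends of that palindrome, was in 58.5% of member promoters. It was in 46.1% of all promoters and in 47.7% of those of the protein-coding genes tested. Among the members it was held by 16 of 27 that were lower, 2 of 4 that were higher and 6 of 10 that passed in neither direction. These are matches of letters, not measured binding.

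**Figure D1:**
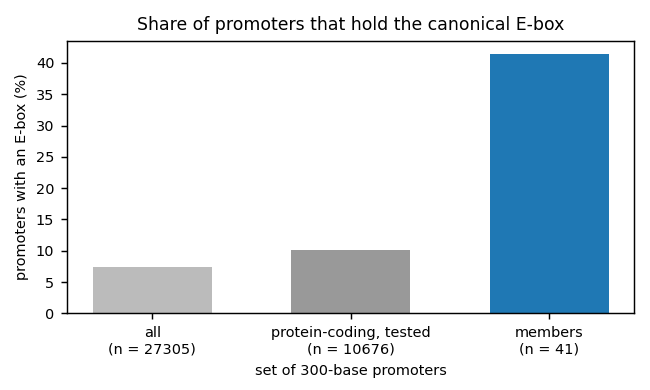
Share of 300-base RefSeq promoters (y axis, percent) that hold the canonical E-box, for all 27305 promoters, the 10676 of protein-coding genes tested and the 41 available for the member genes. The bar of the members stands at 41.5%, above 7.43% and 10.1%.

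Most of the 48 members were lower after NFIC KD, by moderate amounts, and a minority rose. With edgeR's quasi-likelihood test and Benjamini-Hochberg adjustment over 19182 genes tested, 33 of the 48 members passed an adjusted p of 0.05 as lower and 5 as higher, and 10 passed in neither direction. Every member passed the filter on low counts. Changes were widespread in these cells, with 30.3% of all genes tested called lower and 29.6% called higher. Among the 9889 genes at least as abundant as the least abundant member, PNO1, 29.3% were lower and 41.7% were higher. The members' share of lower calls thus lay above that of genes of like abundance and their share of higher calls below it, which is a description, since the members were listed with earlier results of these data known. Their median log2 fold change was -0.34, against -0.01 over all genes tested and 0.08 over the genes of like abundance. The fold changes ran from -1.20 for FBL to 0.57 for UTP20. In 39 members the samples of the arms did not overlap in CPM, 34 of them lower and 5 higher in KD, where 65.2% of all genes tested did not overlap. Among the 9889 genes of like abundance, 3110 were lower and 4308 higher without overlap, so such separation was common. A call as lower with a log2 fold change below -0.5 was reached by 15 members (31.3%). This compares with 19.9% of all genes tested and 13.3% of the genes of like abundance, by the same 2 conditions. Called lower and below -1 were 2 members, FBL and DDX21 (4.17%). This share was near that of the genes of like abundance (3.75%) and under that of all genes tested (8.57%). In bulk RNA, a lower level per cell cannot be told apart from a smaller share of cells that express a gene.

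**Figure D2:**
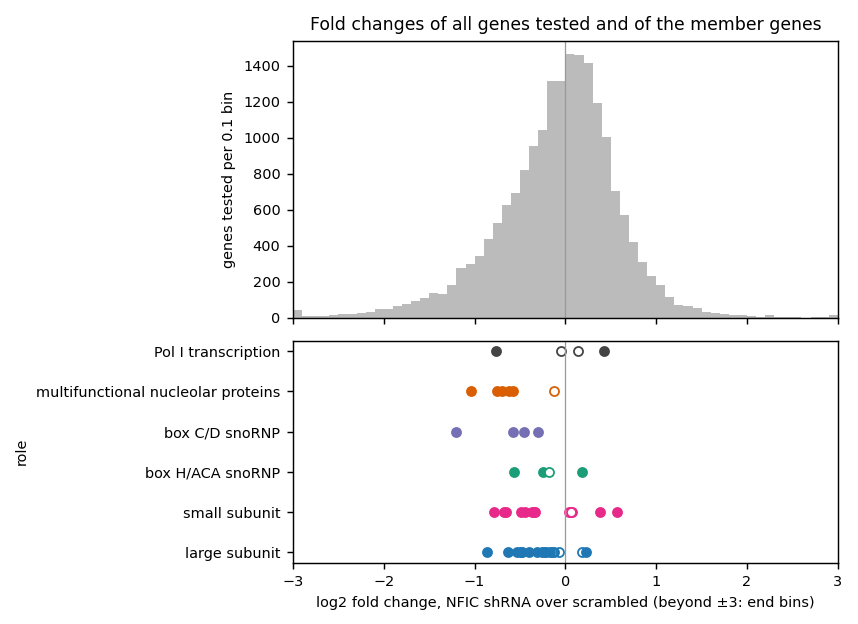
Upper panel, number of genes tested (y axis) by log2 fold change of NFIC KD over scrambled (x axis). Lower panel, the 48 members by role on the same x axis, filled where the adjusted p was under 0.05. Members lie between -1.20 and 0.57, with 33 filled points left of 0 and 5 right of it.

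Summed over the 48 genes, the transcripts made up 4703, 4938 and 4837 CPM in scrambled and 3788, 3631 and 4029 CPM in KD samples. Each KD sample was below each scrambled sample, and the KD mean was 79.1% of the scrambled mean (exact permutation test over samples, two-sided, p = 0.1, the smallest that 3 against 3 samples allow). Without NCL and NPM1, the most abundant members, it was 80.2%. The box C/D genes stood lowest at 65.5% of the scrambled sum and the multifunctional nucleolar proteins at 73.0%. The large subunit factors were at 83.4%, the small subunit factors at 89.1% and the box H/ACA genes at 88.1%. The Pol I transcription genes were at 104%, with overlap between the arms. UBTF made up most of that sum, with a mean of 185 of 324 CPM in scrambled and 204 of 336 CPM in KD samples. The 4 genes moved in different directions, as given below. The KD samples differed among themselves: N2 had the lowest CPM of the 3 in 37 of the 48 members and N3 the highest in 35. The sample medians of the log2 ratio to the scrambled mean were -0.33 in N1, -0.41 in N2 and -0.29 in N3. Without N2 the counts were 30 lower and 6 higher, and without N3 34 lower and 5 higher.

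**Figure D3:**
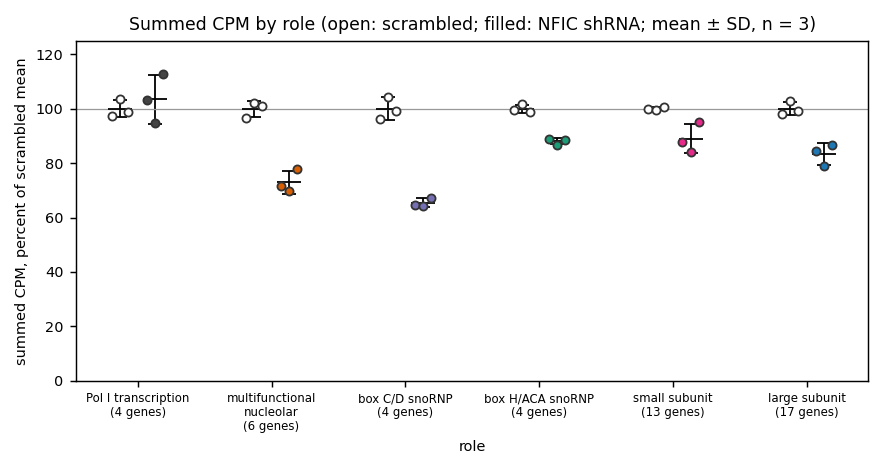
CPM summed over the members of each role in each sample (y axis, percent of the scrambled mean), with points for samples and the mean ± SD (n = 3). KD samples lie below scrambled samples in every role except Pol I transcription, where N2 is below and N3 above the scrambled samples.

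**Figure D4:**
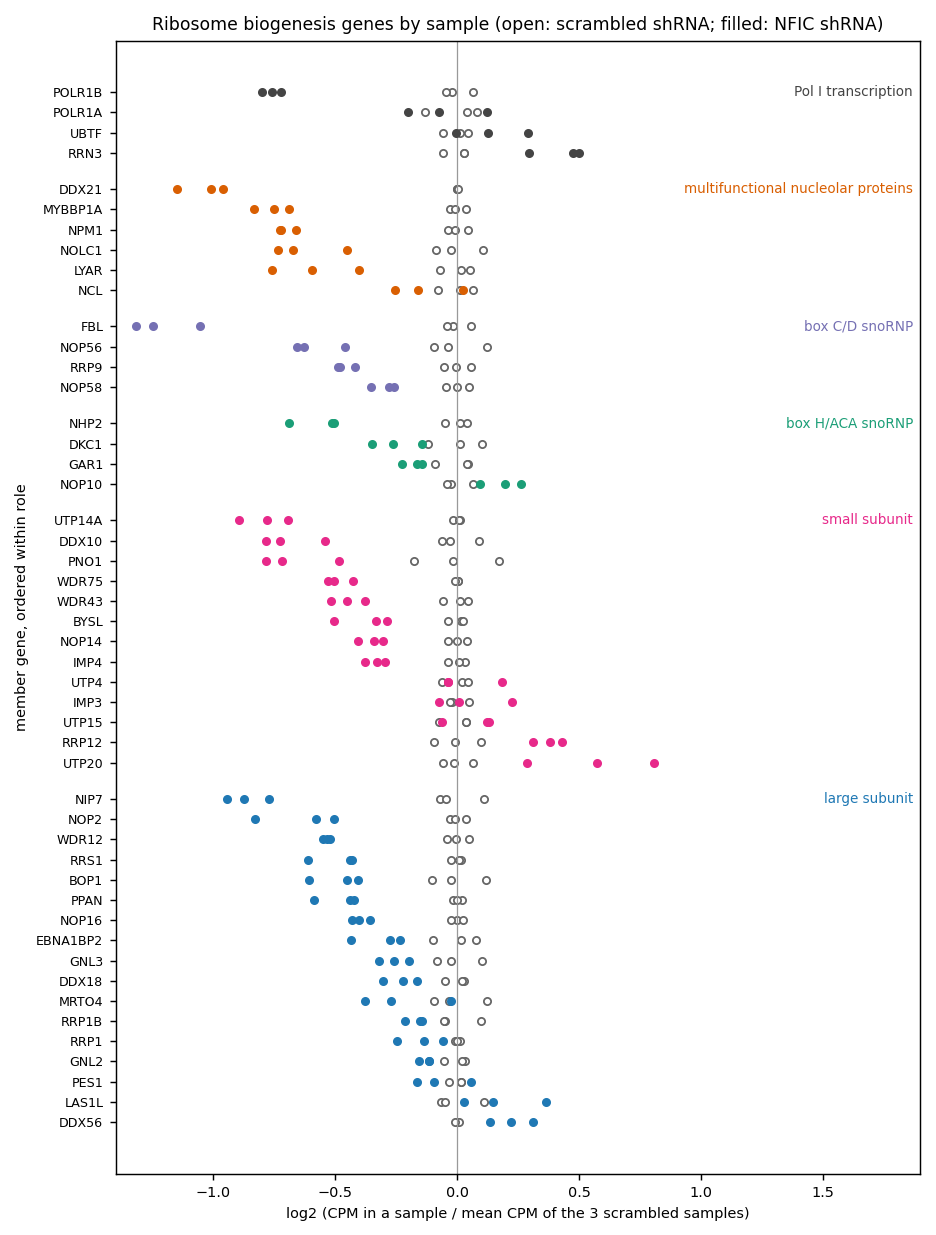
log2 of the CPM in each sample over the mean CPM of the 3 scrambled samples (x axis) for the 48 members (y axis), grouped by role. Open points are scrambled and filled points KD samples, and UTP20, RRN3, RRP12, DDX56 and NOP10 are the genes whose KD points all lie above the scrambled ones.

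The Pol I transcription genes moved in different directions. POLR1B encodes the second largest subunit of Pol I and POLR1A the largest, UBTF is the upstream binding factor that keeps ribosomal DNA open, and RRN3 is the initiation factor that brings Pol I to the promoter. POLR1B was at 47.9, 50.8 and 47.1 CPM in scrambled and at 27.9, 29.5 and 28.7 CPM in KD samples. All 3 KD values were well below the scrambled ones, with a log2 fold change of -0.76 (SE 0.0652, adjusted p = 2.70e-08 from edgeR). POLR1A, in contrast, was at 51.7, 53.2 and 45.9 CPM and at 47.8, 43.7 and 54.8 CPM. The arms overlapped, and its log2 fold change of -0.04 (SE 0.0805) did not pass (adjusted p = 0.655 from edgeR). Per kilobase of gene length, the ratio of POLR1B to POLR1A was 1.46 ± 0.0766 (SD, n = 3) in scrambled and 0.893 ± 0.113 (SD, n = 3) in KD samples, without overlap. This ratio and the other partner ratios below were formed with the fold changes of their genes known, several from the lowest and highest member of a role, so their separation is a description and was not tested.

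RRN3 was at 38.8, 41.2 and 41.1 CPM and rose to 57.1, 49.6 and 56.1 CPM. The log2 fold change was 0.42 (SE 0.0675, adjusted p = 3.57e-05 from edgeR). RRN3 has copies in the genome that can share its reads. RRN3P1, with 36.4% of the RRN3 counts, had a log2 fold change of -0.68, RRN3P2 of 0.32 and RRN3P3 of 0.02, so the split of reads between these loci is uncertain. UBTF, the most abundant gene of the group, was at 178, 191 and 187 CPM and at 202, 185 and 226 CPM. N2 lay within the scrambled range and the gene did not pass (log2 fold change 0.14, SE 0.0641, adjusted p = 0.0679 from edgeR). Without N2 its log2 fold change was 0.21 with an adjusted p of 0.00535 from edgeR. Without each of the other samples its adjusted p from edgeR was between 0.0687 and 0.301.

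Of the multifunctional nucleolar proteins, 5 of 6 were lower in KD and none was higher. DDX21, an RNA helicase that links Pol I transcription with rRNA processing, was at 224 CPM in each of the scrambled samples and at 111, 101 and 115 CPM in the KD samples. Its level was thus below a clear gap, with 48.7% remaining (log2 fold change -1.04, SE 0.0543, adjusted p = 8.08e-11 from edgeR). NPM1, the nucleolar chaperone that is recurrently mutated in AML, was at 841, 857 and 889 CPM and fell to 522, 545 and 523 CPM (log2 fold change -0.70, SE 0.0478, adjusted p = 1.66e-09 from edgeR). Its 17 listed processed copies together had 1.26% of its counts. MYBBP1A, a MYB-binding nucleolar protein, had -0.76, NOLC1, a phosphoprotein that chaperones snoRNPs, had -0.62, and LYAR, a nucleolar zinc finger protein, had -0.58. In all of these the arms did not overlap.

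NCL, or nucleolin, was the exception and the most abundant of all members by CPM. It was at 902, 994 and 958 CPM in scrambled and at 850.3, 797 and 967 CPM in KD samples. N1 and N2 were below the scrambled samples, N3 was among them, and the gene did not pass (log2 fold change -0.13, SE 0.0640, adjusted p = 0.0982 from edgeR). Without N3 it was called lower, with a log2 fold change of -0.20 and an adjusted p of 0.00139 from edgeR. Without each of the other samples its adjusted p from edgeR was between 0.0571 and 0.396. Per kilobase of gene length in the scrambled samples, NPM1 was the highest member at 225 CPM per kilobase, followed by NCL at 139, and DDX10 was the lowest at 2.03.

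The box C/D snoRNP genes were all lower. This particle adds methyl groups to rRNA, with FBL (fibrillarin) as the methyltransferase, NOP56 and NOP58 as its scaffold, and RRP9 as a protein specific to the U3 snoRNP that guides early cleavage. FBL (ENSG00000105202, chromosome 19 of GRCh38, 39834458 to 39846379) was at 104, 110.0 and 103 CPM and fell to 44.5, 50.9 and 42.4 CPM. With 43.5% of its scrambled level remaining it had the largest decrease of the 48 members (log2 fold change -1.20, SE 0.0665, adjusted p = 1.50e-10 from edgeR). NOP56, the most abundant of the group, was at 169, 196 and 176 CPM and at 117, 114 and 131 CPM, a log2 fold change of -0.58 (SE 0.0644, adjusted p = 7.65e-07 from edgeR). NOP58 was at 116, 120.1 and 124 CPM and at 101, 94.2 and 99.0 CPM. Its decrease was smaller, with a log2 fold change of -0.30 (SE 0.0523, adjusted p = 1.03e-04 from edgeR). RRP9 had -0.46.

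The partners of FBL therefore did not move by the same amount. Per kilobase, the FBL to NOP58 ratio was 1.37, 1.40 and 1.27 in scrambled and 0.678, 0.827 and 0.656 in KD samples. The FBL to NOP56 ratio was 1.36 ± 0.0664 (SD, n = 3) and 0.888 ± 0.141 (SD, n = 3). Neither ratio overlapped between the arms.

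The box H/ACA genes, which serve pseudouridylation and, with telomerase RNA, telomere maintenance, diverged. NHP2 was at 57.7, 58.9 and 55.3 CPM and fell to 40.1, 35.6 and 40.4 CPM, a log2 fold change of -0.57 (SE 0.0660, adjusted p = 1.05e-06 from edgeR). NHP2 shares 28.0% of its exon bases with RMND5B on the other strand, which also fell, by 0.47 on the log2 scale, and how the counting treated strand is not given in the sources used here. DKC1, or dyskerin, the pseudouridine synthase itself, fell with a log2 fold change of -0.25. GAR1 was at 24.0, 21.9 and 24.0 CPM and at 20.8, 21.1 and 19.9 CPM. Its arms did not overlap, yet it did not pass (log2 fold change -0.18, SE 0.0778, adjusted p = 0.0586 from edgeR). Without C3 its adjusted p from edgeR was 0.0300, and without each of the other samples it was between 0.0744 and 0.154.

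NOP10 encodes the smallest protein of the H/ACA core and was the most abundant transcript of this group by mean CPM over all samples. In the scrambled arm alone, DKC1 (mean 58.7 CPM) and NHP2 (57.3 CPM) stood above it (55.4 CPM). NOP10 was at 57.9, 54.4 and 53.9 CPM and at 63.5, 66.3 and 59.0 CPM. All KD samples were above the scrambled ones and it was called higher (log2 fold change 0.18, SE 0.0619, adjusted p = 0.0162 from edgeR). The adjusted p rose to 0.0517 without C3, 0.0799 without C4, 0.0659 without N2 and 0.0900 with upper-quartile normalization. The ratio of NHP2 to NOP10 per kilobase was 0.380 ± 0.0159 (SD, n = 3) in scrambled and 0.227 ± 0.0277 (SD, n = 3) in KD samples, without overlap.

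**Figure D5:**
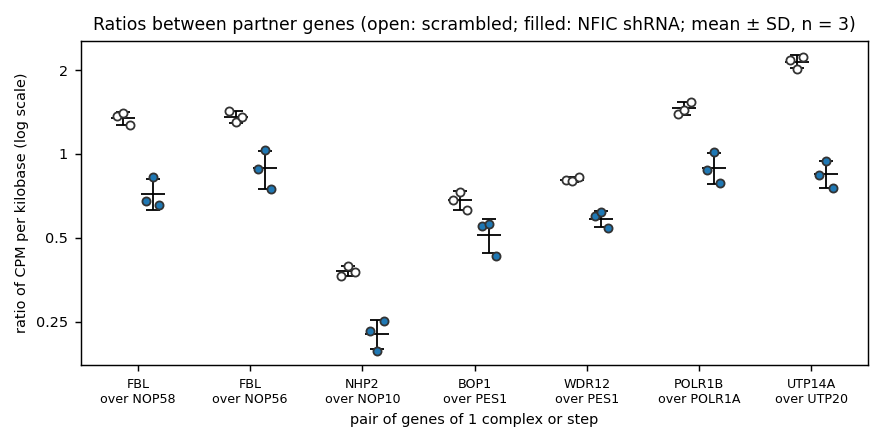
Ratio of CPM per kilobase between partner genes (y axis, log scale) for 7 pairs (x axis), with a point for each sample and the mean ± SD (n = 3). The pairs were formed from genes known to differ in fold change, and in each the KD samples lie below the scrambled samples (for UTP14A over UTP20, means of 0.846 and 2.14).

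Among the 13 factors of the small subunit, 8 were lower, 2 higher and 3 passed in neither direction. These proteins mostly belong to the processome, the large particle that forms on the nascent transcript. UTP14A, which activates the helicase that removes U3 from the particle, was at 19.2, 18.8 and 19.1 CPM and at 11.1, 10.3 and 11.8 CPM. All KD values were lower, with a log2 fold change of -0.79 (SE 0.0893, adjusted p = 7.92e-07 from edgeR). A related gene, UTP14C, had 494% of the UTP14A counts and a log2 fold change of 0.35, and reads may be split between them. NOP14, the most abundant of the group, was at 89.6, 94.5 and 91.9 CPM and at 72.7, 69.3 and 74.5 CPM, a log2 fold change of -0.35 (SE 0.0542, adjusted p = 2.66e-05 from edgeR). It shares 20.7% of its exon bases with its antisense gene NOP14-AS1, whose counts were 67.7% of those of NOP14 and whose log2 fold change was 0.02.

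The helicase DDX10 had a log2 fold change of -0.68 and PNO1, a late-acting partner of the nuclease that forms the end of the small rRNA, of -0.65. PNO1 overlaps an antisense locus with 312% of its counts. The scaffold proteins WDR75 and WDR43 of the early transcription-linked subcomplex had -0.49 and -0.45. BYSL, which acts in export of the small subunit precursor, had -0.37, and IMP4, which binds U3 RNA, had -0.33. None of these overlapped between the arms.

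UTP20 and RRP12 went the other way. UTP20 (ENSG00000120800), a very large helical repeat protein of the processome, was at 21.7, 22.9 and 21.0 CPM and rose to 32.5, 26.7 and 38.2 CPM. It had the highest fold change of the members (log2 fold change 0.57, SE 0.106, adjusted p = 2.81e-04 from edgeR), and N3 stood highest. RRP12, a repeat protein that helps export both subunits, was at 64.4, 60.9 and 69.5 CPM and rose to 84.7, 80.6 and 87.5 CPM (log2 fold change 0.38, SE 0.0610, adjusted p = 4.38e-05 from edgeR). Per kilobase, UTP14A exceeded UTP20 in each scrambled sample, with ratios of 2.18, 2.02 and 2.24, and was below it in each KD sample, with 0.839, 0.944 and 0.757. Which of the genes stands higher rests on the gene lengths used and on the uncertain split of reads with UTP14C.

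UTP4, UTP15 and IMP3 had arms that overlapped. UTP4 was at 46.3, 49.0 and 49.8 CPM and at 47.2, 47.1 and 55.0 CPM (log2 fold change 0.04, SE 0.0698, adjusted p = 0.634 from edgeR). UTP15 was at 16.0, 17.3 and 17.3 CPM and at 16.2, 18.4 and 18.5 CPM (log2 fold change 0.07, SE 0.0873, adjusted p = 0.511 from edgeR). IMP3 was at 35.9, 37.6 and 35.6 CPM and at 36.5, 34.5 and 42.5 CPM (log2 fold change 0.06, SE 0.0770, adjusted p = 0.538 from edgeR). Of the exon bases of IMP3 31.7% are shared with SNX33 on the other strand, which had a log2 fold change of -0.31. In UTP4 and IMP3 the N3 sample alone lay above all scrambled samples, and the sign of the fold change turned without N3.

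Of the 17 large subunit factors, 13 were lower, 1 was higher and 3 passed in neither direction. NIP7, which binds pre-rRNA, was at 41.6, 47.0 and 42.3 CPM and fell to 25.5, 22.7 and 23.8 CPM, the lowest fold change of the group (log2 fold change -0.86, SE 0.0745, adjusted p = 2.85e-08 from edgeR). Part of its exons (18.4% of bases) overlaps COG8 on the other strand, which had a log2 fold change of 0.14. DDX18, a helicase and the most abundant gene of the group, was at 148, 156 and 155 CPM and at 137, 124 and 131 CPM, a log2 fold change of -0.23 (SE 0.0525, adjusted p = 0.00111 from edgeR). In both genes each KD sample was below each scrambled sample.

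NOP2, a methyltransferase of the large rRNA, had a log2 fold change of -0.63. Of its exon bases 54.4% are shared with AC006064.6 on the same strand, which had 51666 counts against 5525 for NOP2 and a log2 fold change of -0.08, so the assignment of reads between them is uncertain. RRS1 had -0.49 and its partner EBNA1BP2 -0.31. RRS1 shares 11.3% of its exon bases with AC009879.2 on the same strand, which had a log2 fold change of -0.47. EBNA1BP2 shares 13.7% with CFAP57 on the other strand, which had -0.32. PPAN had -0.48 and the read-through locus PPAN-P2RY11 also -0.48. The latter had 107% of the PPAN counts and spans the same exons, so these are not separate observations. NOP16, which shares 12.3% of its exon bases with ARL10 on the other strand (log2 fold change -0.80), had -0.40, and the GTPases GNL3 (nucleostemin) and GNL2 had -0.26 and -0.13. MRTO4, a factor that holds the place of a stalk protein, had -0.22 and RRP1B -0.17.

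Within the large subunit group, the calls of GNL2, MRTO4 and RRP1B were those lost under at least 1 alternative setting. The adjusted p of GNL2, 0.0493 from edgeR, was above the threshold in 10 of 14 alternatives and ranged from 0.00626 to 0.160. For MRTO4 this was so in 5 of 14, with an adjusted p between 4.62e-04 and 0.167, and its N3 value lay within the range of the scrambled samples. For RRP1B it was so in 4 of 14, with an adjusted p between 0.00338 and 0.103. Leaving out N1 or N2 lost all 3 calls, with adjusted p from edgeR of 0.110 and 0.128 for GNL2, 0.126 and 0.167 for MRTO4 and 0.0533 and 0.0809 for RRP1B. Leaving out C3 lost MRTO4 (0.132) and RRP1B (0.103), leaving out C4 lost GNL2 (0.125) and MRTO4 (0.0515), and leaving out C1 lost GNL2 (0.131).

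The PeBoW complex, made up of PES1, BOP1 and WDR12 and needed to mature the large subunit rRNA, was not lowered evenly. BOP1 had a log2 fold change of -0.49 and WDR12 of -0.53, and both passed without overlap. PES1 was at 65.8, 68.0 and 68.1 CPM and at 62.9, 60.0 and 70.0 CPM, with N3 above the scrambled samples (log2 fold change -0.07, SE 0.0627, adjusted p = 0.382 from edgeR). The WDR12 to PES1 ratio per kilobase was 0.809 ± 0.0153 (SD, n = 3) in scrambled and 0.586 ± 0.0399 (SD, n = 3) in KD samples. The BOP1 to PES1 ratio was 0.682 ± 0.0531 (SD, n = 3) and 0.513 ± 0.0713 (SD, n = 3). Neither overlapped. In total 7 partner ratios were computed.

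DDX56, a helicase of the large subunit pathway, was the gene of this group that rose. It was at 61.2, 61.6 and 60.9 CPM and at 71.4, 67.3 and 76.1 CPM (log2 fold change 0.22, SE 0.0590, adjusted p = 0.00338 from edgeR). LAS1L, a subunit of the complex that cuts the internal spacer, was at 31.1, 35.2 and 31.5 CPM and at 36.1, 33.3 and 42.0 CPM. N2 overlapped the scrambled samples and the gene did not pass (log2 fold change 0.19, SE 0.0846, adjusted p = 0.0677 from edgeR). Without N2 the adjusted p from edgeR was 0.0135 and without C3 it was 0.0327. Without each of the other samples it was between 0.0886 and 0.332. RRP1 was at 23.9, 23.5 and 23.7 CPM and at 21.5, 20.0 and 22.8 CPM, lower in each KD sample but not past the threshold (log2 fold change -0.15, SE 0.0778, adjusted p = 0.117 from edgeR).

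Several members carry snoRNA genes inside their introns or exons. In the GENCODE release 44 annotation of GRCh38, 7 of the 48 (14.6%) had at least 1 snoRNA gene within their bounds on the same strand, 25 snoRNA genes in all, compared with 1.65% of the 13768 protein-coding genes tested. The 7 were NCL, NOP56, NOP58, DKC1, WDR43, GNL3 and PPAN. Of these 6 were lower in KD, NCL not passing, and their median log2 fold change was -0.30, compared with -0.35 for the 41 others. All tested protein-coding hosts had a median of -0.06, with 42.3% of 227 called lower. The 48 members lie on 19 chromosomes, with 10 on chromosome 2.

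Genes of the same pathway outside the 48, taken from 4 lists of 122 genes written from general knowledge, were more mixed. Of 121 tested, 50 were lower and 30 higher, beside 30.3% and 29.6% of all genes tested. Their median log2 fold change was -0.10. The division depended on scaling, with 61 lower and 19 higher under upper-quartile normalization. Under that scaling the shares over all genes tested also moved, to 33.9% lower and 25.8% higher. The members then had 36 lower and 4 higher. The other Pol I genes had 8 lower and 2 higher of 12, beside the same shares over all genes tested. Their median log2 fold change of -0.37 was near the -0.34 of the members. POLR1D, a subunit shared with Pol III, had a mean of 96.2 ± 1.43 CPM in scrambled and 41.6 ± 3.48 CPM in KD samples (SD, n = 3), a log2 fold change of -1.21 beside -1.20 for FBL. TAF1D, a subunit of the selectivity factor for the Pol I promoter, had -0.69. TTF1, the Pol I termination factor, and POLR1C rose with 0.30 and 0.17.

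Of 41 other small subunit factors tested, 15 were lower and 10 higher, beside 30.3% and 29.6% of all genes tested. RCL1 and SNU13, the latter a protein that binds box C/D RNA directly, had log2 fold changes of -0.88 and -0.80, and RRP36 and EMG1 had 0.97 and 0.61. Of 43 other large subunit factors, 21 were lower and 10 higher, beside the same 30.3% and 29.6% of all genes tested. NLE1 and RSL1D1 had -1.07 and -1.01, whereas SBDS, the gene of Shwachman-Diamond syndrome, and DDX24 had 0.67 and 0.56. Of 25 genes for snoRNP assembly and the RNA exosome 6 were lower and 8 higher, not far from the shares over all genes tested, with C12orf45 and ZNHIT6 at -0.74 and -0.64 and the exosome subunits EXOSC6 and EXOSC1 at 0.61 and 0.36.

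A short list of genes linked to the chromatin state of ribosomal DNA had 6 of 8 tested members higher and none lower, where 29.6% of all genes tested and 41.7% of the genes at least as abundant as PNO1 were higher. BAZ2A, the large subunit of the nucleolar remodeling complex that silences rRNA genes, had a mean of 193 ± 13.3 CPM in scrambled and 368 ± 8.46 CPM in KD samples (SD, n = 3), a log2 fold change of 0.93 (SE 0.0546, adjusted p = 2.71e-10 from edgeR). SIRT7, a nucleolar deacetylase that has been tied to Pol I activity as well as to silencing, had 0.85. KDM2A, a demethylase of histone H3, and SMARCA5, the ATPase that pairs with BAZ2A, had 0.21 and 0.28, the lowest of the 6. MYC, for comparison, was at 217, 233 and 223 CPM in scrambled and at 89.1, 91.8 and 76.4 CPM in KD samples (log2 fold change -1.39, SE 0.0636, adjusted p = 2.37e-11 from edgeR), a larger decrease than that of any of the 48 members. Whether MYC had a part in their change was not tested.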

How the data were processed

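Bulk RNA sequencing of 3 scrambled and 3 NFIC shRNA samples was analysed. The authors trimmed reads with Trim Galore, mapped them to GRCh38 with STAR and counted them with featureCounts on the Ensembl release 96 annotation, and the deposited table gives unnormalized counts per gene. It also holds values the authors derived: a normalized signal (count divided by a size factor), FPKM, and the log2 fold change, Wald score and p-value of their DESeq2 comparison, none of which was used here. Their treatment of strand and of overlapping genes is not given in the sources used here.

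Columns were matched to samples by the name in the title. Testing used edgeR 4.0.16 in R 4.3.3, with TMM factors, its filter on low counts, robust dispersions and the quasi-likelihood test without a block, over 19182 genes, with Benjamini-Hochberg adjustment and a threshold of 0.05. The SE is the fold change divided by the root of F. CPM are TMM-scaled, and lengths are those of the table. Alternatives were other scalings and filters, DESeq2 1.42.0, limma 3.58.1, a threshold of 0.01, a block by sample order and leaving out each sample. The scripts were tested on simulated data. All pairs within an arm differed beyond sampling noise (chi-square per degree of freedom 1.94 to 7.30). The floor of 3 counts covers counting error only.

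The members, lists and roles were chosen with earlier results of these data known. Values in every sample are given for the most abundant, lowest and highest member of each role and for members that passed in neither direction or rose, and log2 fold changes for the others. Of each outside list the genes called with the 2 lowest and 2 highest values are named. NPM1 and UTP14C are outside this rule and were added after values were seen. Overlaps and snoRNA genes come from GENCODE release 44, matched by identifier, and promoters from RefSeq (GRCh38.p14), matched by symbol.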

Additional observations from a re-analysis of the deposited data

How the results depend on the processing

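The count of lower members stayed between 30 and 36 and that of higher members between 4 and 7 over the alternatives and the fits that left out 1 sample, and the median log2 fold change of the members between -0.40 and -0.31. DESeq2 gave 30 lower and 5 higher. The summed CPM of the members was between 77.1% and 81.2% of the scrambled level when 1 sample was left out. Call and direction held in all 14 alternatives at the threshold of 0.05 for 36 of the 48 members, and 12 changed in at least 1. The sign turned with upper-quartile normalization for UTP4 (log2 fold change -0.017) and IMP3 (-1.94e-04). With 1 sample left out, UTP4 ranged from -0.034 to 0.084 and IMP3 from -0.031 to 0.124, both lowest without N3, and POLR1A from -0.134 to 0.033, highest without N2. None of these was called. The cause of these changes was not tested. With place in the sample order as a block (C1 with N1, C3 with N2, C4 with N3), 32 members were lower and 5 higher. The call of GNL2 was lost (adjusted p = 0.0737 from edgeR), while no other member's call changed. Samples matched by this order had correlations of 0.0563, -0.0862 and -0.0446 in their deviations from the group means across genes. C3 and N3, which share a number by name, had 0.145, the highest of the pairs across arms. The samples were not taken as paired, and a block by the numbers in the names was not fitted. Of other biogenesis genes between 44 and 61 were lower.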
